A study of Homo sapiens with 6 samples.

Results

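The 8 genes described here set the phosphorylation of the translation initiation factor eIF2-alpha or sit directly upstream of its kinases. They are the 4 eIF2-alpha kinases EIF2AK1, EIF2AK2, EIF2AK3 and EIF2AK4, the regulatory phosphatase subunits PPP1R15A and PPP1R15B, the mitochondrial protease OMA1 and the kinase regulator IMPACT. They were taken by symbol from a table of 35993 genes, and all 8 were found. RNA was sequenced from MIA PaCa-2, an established human pancreatic carcinoma line, in 3 untreated libraries and in 3 libraries from cells given recombinant human cytoglobin (rhCYGB, a haem protein of the globin family made in E. coli with a histidine tag) at 4 µM for 48 hours. Both groups were the same line without genetic change, in medium whose serum had been lowered before the treatment, and the labels name no buffer or inactive protein given to the untreated cells. The question was which transcripts changed after rhCYGB. The labels do not say whether the 3 libraries of a group came from separate cultures, so the p-values below measure the spread between these libraries, which may be technical.

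When eIF2-alpha is phosphorylated, it blocks its own exchange factor eIF2B, general initiation of translation falls, and a small set of mRNAs with upstream open reading frames is translated more. Each kinase answers a different signal: EIF2AK1 (HRI) haem shortage and mitochondrial stress, EIF2AK2 (PKR) double-stranded RNA, EIF2AK3 (PERK) unfolded protein in the endoplasmic reticulum (ER), and EIF2AK4 (GCN2) amino acid shortage. PPP1R15A (GADD34, the inducible subunit) and PPP1R15B (CReP, the constitutive subunit) bring protein phosphatase 1 to eIF2-alpha and reverse the mark. The kinases are switched on by phosphorylation of the protein, which an mRNA table does not measure.

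The deposited read counts summed to between 34838399 and 42271299 per library, and 14728 genes passed the filter on low counts. Counts are given below as CPM, counts per 1000000 counts of a library, after TMM scaling, which adjusts library sizes so that the trimmed mean of the log ratios of genes between libraries is 0. A count of 3, the limit that a count of 0 allows, corresponds to 0.0669 to 0.0902 CPM, a limit that covers counting error only. Of 6 epithelial markers, KRT8 (2085 CPM in untreated and 1190 CPM in rhCYGB libraries), KRT18 (1648 and 1694 CPM) and KRT19 (260 and 171 CPM) were well measured, with KRT8 and KRT19 called lower and KRT18 not called. The summed level of the epithelial list was 3844 to 4074 CPM in untreated and 2961 to 3167 CPM in rhCYGB libraries. KRT7 was near 0, EPCAM had no count in any library, and CDH1 had 2 counts in all. CDKN2A, CDKN2B and MTAP, which are deleted in this line, had 0 counts in all 6 libraries. Of 9 stellate cell and fibroblast markers, DCN, LUM and CYGB itself were at 0 throughout, and the summed level of the list was 148 to 159 CPM in untreated and 11.5 to 13.6 CPM in rhCYGB libraries, most of it COL1A2. Of 4 leukocyte markers, PTPRC and CD3E were at 0, CD68 rose from 36.0 to 71.4 CPM and CD14 fell from 4.10 to 0.225 CPM. The sum of that list, mostly CD68, was 38.4 to 42.0 CPM in untreated and 70.6 to 72.7 CPM in rhCYGB libraries. The part of these shifts in the results below was not tested.

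After rhCYGB, the 2 phosphatase subunits were the members with the large differences: PPP1R15A was 14.3-fold and PPP1R15B 2.95-fold higher than in untreated cells. Among the kinases EIF2AK3 was 1.21-fold higher, EIF2AK1 was 19.1% and EIF2AK4 21.5% lower, and EIF2AK2 did not pass the test. OMA1 was 17.2% and IMPACT 15.1% lower. The falls depended on the scaling: with library totals the log2 fold changes were -0.47 for EIF2AK1, -0.51 for EIF2AK4, -0.44 for OMA1 and -0.40 for IMPACT, against -0.31, -0.35, -0.27 and -0.24 with TMM, where library totals moved the median of all genes to -0.17. At a Benjamini-Hochberg adjusted p under 0.05 in the quasi-likelihood test of edgeR, 3 members rose, 4 fell and 1 had no call. Among all 14728 genes 77.6% were called, 39.0% higher and 38.6% lower, so a call alone did not set these genes apart. Calls of at least 2-fold were made for 2 members, both higher, against 27.1% of all genes, 12.4% higher and 14.7% lower. That background moved with the scaling, from 1833 higher and 2165 lower genes to 1395 higher and 2719 lower when library totals were used without TMM factors, and to 1448 and 2633 with upper quartile factors. The median log2 fold change was -0.09 over the 8 members and -0.0046 over all genes tested.

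The start regions of the members are shown because both phosphatase subunits rose and both hold letters of the CRE and ATF type, TGACGT, before their RefSeq start. The letters were chosen with the sequences in view, and a match describes the sequence and is no measured site. In RefSeq (GRCh38.p14) 7 of the 8 members had a promoter of 250 bases before and 50 after the start, and each motif was sought on both strands in 27305 promoters. TGACGT was in 8.32% of all promoters and in 2 of these 7, TGATGNAA (the CHOP and ATF4 composite type) in 3.67% and in 1, GAAA repeated after 2 bases of any kind (the interferon response type) in 3.65% and in 1, and CCAAT in 35.7% and in 3. PPP1R15A held TGACGT starting 152 and 58 bases before its start, the second within the palindrome TGACGTCA, which matches on both strands. PPP1R15B held TGATGCAA starting 227 bases and TGACGT starting 101 bases before its start, and 1 CCAAT. EIF2AK2 held GAAAACGAAA starting 6 bases before and running over the start, and 2 CCAAT, while EIF2AK3 held 4 CCAAT and none of the other 3 motifs. EIF2AK4, OMA1 and IMPACT held none of the 4 motifs in these windows. The lines below give, 5′ to 3′ on the gene's strand, the 250 bases before the start of PPP1R15A (chr19:48872171-48872420, plus strand), the 250 before that of PPP1R15B (chr1:204411818-204412067, minus strand) and 30 bases around that of EIF2AK2 (chr2:37156971-37157000, minus strand), with the matches of TGACGT, its palindrome, TGATGNAA and the repeated GAAA in capitals.
PPP1R15A: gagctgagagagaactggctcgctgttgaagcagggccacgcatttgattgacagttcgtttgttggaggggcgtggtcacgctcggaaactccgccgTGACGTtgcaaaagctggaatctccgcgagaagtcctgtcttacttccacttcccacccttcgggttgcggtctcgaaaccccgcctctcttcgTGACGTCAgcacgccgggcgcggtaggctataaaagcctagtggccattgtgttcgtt
PPP1R15B: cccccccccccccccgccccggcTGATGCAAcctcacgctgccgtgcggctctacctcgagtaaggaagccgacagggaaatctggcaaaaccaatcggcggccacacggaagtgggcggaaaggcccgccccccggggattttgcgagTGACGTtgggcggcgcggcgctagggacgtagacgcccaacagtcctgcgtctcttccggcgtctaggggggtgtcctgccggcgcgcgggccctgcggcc
EIF2AK2: gcggagtccaagggGAAAACGAAActgaga

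**Figure D1:**
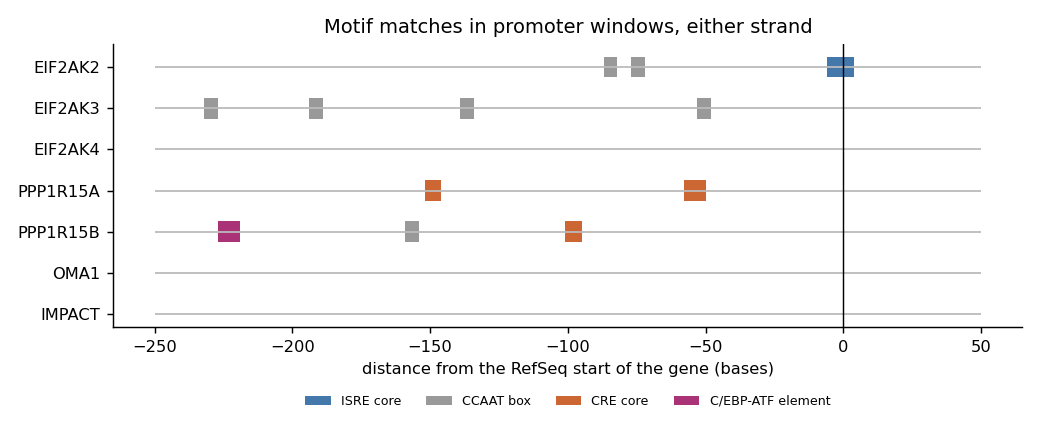
Each row is 1 of the 7 members with a RefSeq promoter, the x axis is the distance in bases from the annotated start, and each mark is a match of 1 of the 4 motifs on either strand (CRE core, TGACGT; C/EBP-ATF element, TGATGNAA; ISRE core, the repeated GAAA; CCAAT box). TGACGT is marked in PPP1R15A and PPP1R15B, the repeated GAAA at the start of EIF2AK2, and CCAAT in EIF2AK2, EIF2AK3 and PPP1R15B.

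PPP1R15A, the inducible phosphatase subunit, had 1513, 1804 and 1358 reads in the untreated libraries and 20515, 17865 and 20051 in the rhCYGB libraries. As CPM these were 40.6, 40.3 and 33.3 against 552, 537 and 544. The groups were far apart, and untreated replicate 3 was the lowest library. The log2 fold change was 3.84 ± 0.06 (SE, edgeR adjusted p = 3.33e-16), a fold of 14.3 with a 95% confidence interval of 13.1 to 15.7. Only 0.468% of the 14728 genes had a larger rise, which placed PPP1R15A at rank 70. Its coefficient of variation was 10.8% in untreated and 1.40% in rhCYGB libraries, where the median gene with a mean count of 100 or more had 4.09% and 5.04%. The annotated gene lay at chr19:49375649-49379319 in the deposited table, whose build the sources used here do not give for human genes, and it overlapped no other gene there.

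PPP1R15B, the constitutive phosphatase subunit, stood at 52.7, 51.3 and 52.4 CPM in untreated and 154, 146 and 161 CPM in rhCYGB libraries. All rhCYGB values lay above all untreated values. The log2 fold change was 1.56 ± 0.04 (SE, edgeR adjusted p = 1.01e-13), a fold of 2.95 with a 95% confidence interval of 2.76 to 3.15. A larger rise was measured for 5.57% of the genes. Per length, as FPKM (fragments per kilobase of transcript, scaled to the mapped reads of the library), the ratio of PPP1R15A to PPP1R15B was 1.71, 1.74 and 1.41 in untreated and 7.96, 8.13 and 7.47 in rhCYGB libraries. The ratio was thus 4.87-fold higher, without overlap (exact two-sided permutation test, p = 0.1, the smallest that 3 against 3 libraries allow; adjusted over 6 ratios, 0.15).

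**Figure D2:**
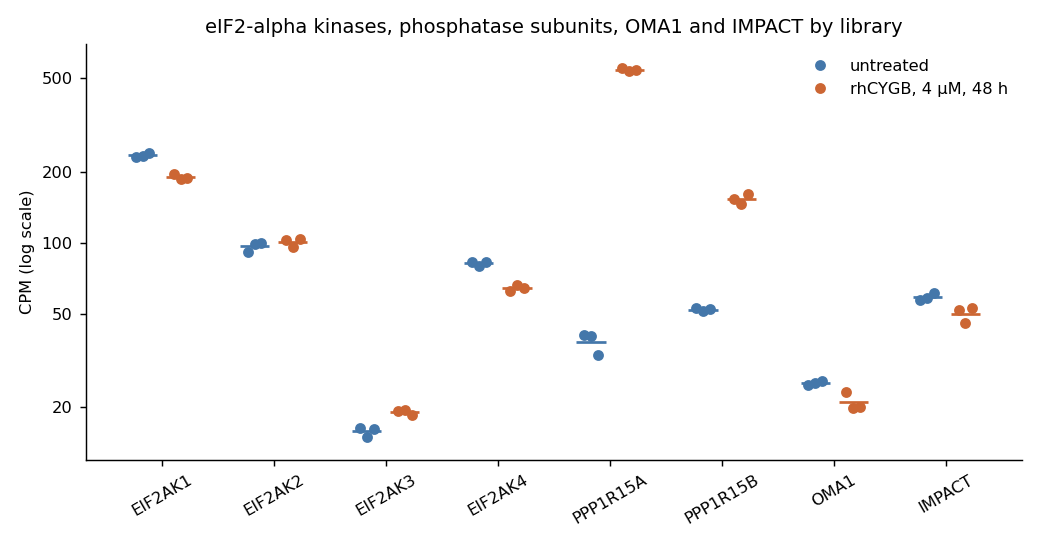
For each of the 8 members (x axis), CPM after TMM scaling is drawn on a log y axis, with the 3 untreated and the 3 rhCYGB libraries as points and the group means as lines. The groups are separate for 7 members, with the widest gap for PPP1R15A, and they overlap for EIF2AK2.

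EIF2AK1, the haem-regulated kinase, stood at 232, 234 and 241 CPM in untreated and 195, 187 and 189 CPM in rhCYGB libraries. It fell by 0.31 on the log2 scale (SE 0.036, edgeR adjusted p = 1.55e-06), with a 95% confidence interval of -0.38 to -0.23, and the groups did not overlap. In the deposited table its locus, chr7:6061878-6098860, shared 1588 bases with AIMP2, whose mean read count was 1571 in untreated and 3035 in rhCYGB libraries, and 5177 bases with ANKRD61, at 2.00 and 10.3 reads. The sources used here do not state whether reads were counted by strand, so reads in the shared bases may belong to either gene.

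EIF2AK4, the sensor of uncharged tRNA, stood at 83.0, 79.5 and 83.2 CPM in untreated and 62.5, 66.3 and 64.2 CPM in rhCYGB libraries. It was 0.35 lower on the log2 scale (95% confidence interval -0.44 to -0.26, edgeR adjusted p = 2.68e-06), and every rhCYGB value was below every untreated one. This was the lowest of the members' log2 fold changes, but its interval overlapped that of EIF2AK1, and without rhCYGB replicate 1 OMA1 was lower (-0.34 against -0.32). IMPACT, which competes with EIF2AK4 for its activator GCN1, stood at 57.0, 58.6 and 61.4 CPM in untreated and 51.7, 45.7 and 52.8 CPM in rhCYGB libraries. It fell by 0.24 on the log2 scale (SE 0.057, edgeR adjusted p = 0.00148), also without overlap. The FPKM ratio of EIF2AK4 to IMPACT was 0.981, 0.915 and 0.914 in untreated and 0.815, 0.978 and 0.819 in rhCYGB libraries. These ranges overlapped (exact permutation p = 0.3).

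EIF2AK3, the ER kinase, stood at 16.3, 15.0 and 16.2 CPM in untreated and 19.3, 19.6 and 18.6 CPM in rhCYGB libraries. It rose by 0.27 on the log2 scale (SE 0.068, edgeR adjusted p = 0.00194), with a 95% confidence interval of 0.13 to 0.42. This call depended on the scaling: it was 0.13 (adjusted p = 0.0935) with upper quartile factors and 0.11 (adjusted p = 0.160) with library totals, scalings that moved the median of all genes to -0.15 and -0.17. Measured from the median of all genes, EIF2AK3 was 0.28 higher under TMM and under both of those scalings. The FPKM ratio of EIF2AK3 to EIF2AK4 was 0.240, 0.230 and 0.237 in untreated and 0.377, 0.360 and 0.353 in rhCYGB libraries, 1.54-fold higher without overlap (exact permutation p = 0.1).

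EIF2AK2, the double-stranded RNA kinase, stood at 91.7, 98.8 and 99.8 CPM in untreated and 103, 96.0 and 104 CPM in rhCYGB libraries. The ranges overlapped, and no difference was called (log2 0.06, SE 0.046, edgeR adjusted p = 0.219), with a direction that turned under other scalings, to -0.08 with upper quartile factors and -0.10 with library totals. The 95% confidence interval of the fold was 0.976 to 1.12, so a change of the size seen for EIF2AK1 or EIF2AK4 lay outside it under TMM scaling. The FPKM ratio of EIF2AK1 to EIF2AK2 was 5.65, 5.34 and 5.45 in untreated and 4.25, 4.36 and 4.06 in rhCYGB libraries, without overlap (exact permutation p = 0.1).

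OMA1, the inner-membrane protease whose cleavage of DELE1 can activate EIF2AK1, stood at 24.9, 25.5 and 25.8 CPM in untreated and 23.2, 19.8 and 20.02 CPM in rhCYGB libraries. It fell by 0.27 on the log2 scale (SE 0.068, edgeR adjusted p = 0.00197). Its rhCYGB libraries spread more than its untreated ones, with coefficients of variation of 9.05% and 1.83%, and rhCYGB replicate 1 was the highest of them. The FPKM ratio of EIF2AK1 to OMA1 was 3.92, 3.87 and 3.93 in untreated and 3.54, 3.97 and 3.99 in rhCYGB libraries, which overlapped (exact permutation p = 1.0). CPM values of 7 of the 8 members did not overlap between the groups, with 3 higher and 4 lower after rhCYGB, which was so for 79.5% of all genes tested, 39.8% higher and 39.7% lower.

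Levels are compared between members per length. The FPKM values are not TMM-scaled, and on log2(FPKM + 0.1) the median of all genes was -0.15 after rhCYGB. Differences in FPKM between the groups were not corrected for that shift. In untreated cells EIF2AK1 was highest at 49.7 ± 1.41 FPKM (SD, n = 3), 3.34 times the next. PPP1R15A (14.9 ± 1.502), IMPACT (14.7 ± 0.669), EIF2AK4 (13.8 ± 0.400) and OMA1 (12.7 ± 0.324 FPKM) followed, then PPP1R15B (9.21 ± 0.155) and EIF2AK2 (9.08 ± 0.425), with EIF2AK3 last at 3.25 ± 0.158 FPKM. Of the neighbours in this order, PPP1R15A and IMPACT overlapped, as did PPP1R15B and EIF2AK2 (exact permutation p = 0.8 for each pair), and the other 5 pairs did not (p = 0.1). The FPKM of EIF2AK2 rests on its variant 2, of 9975 bases, to which 99.2% to 99.9% of its counts were assigned. Variants 1 and 3 have 4348 and 3684 bases. In untreated CPM, EIF2AK2 (96.8) was above EIF2AK4 (81.9). The place of EIF2AK2 in the order, its ratio to EIF2AK1 and the kinase sums and shares depend on that assignment, which was not tested.

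After rhCYGB PPP1R15A was highest at 190 ± 6.18 FPKM, 5.30 times EIF2AK1 at 35.9 ± 1.37 FPKM. PPP1R15B was next at 24.3 ± 1.70 FPKM, ahead of IMPACT (11.2 ± 1.08), EIF2AK4 (9.65 ± 0.201), OMA1 (9.39 ± 0.927), EIF2AK2 (8.50 ± 0.565) and EIF2AK3 (3.51 ± 0.042 FPKM). EIF2AK4 and OMA1 overlapped, as did OMA1 and EIF2AK2 (exact permutation p = 0.6 and p = 0.3), and 5 neighbouring pairs did not. PPP1R15B thus stood above IMPACT, EIF2AK4 and OMA1 after rhCYGB and below them in untreated cells.

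**Figure D3:**
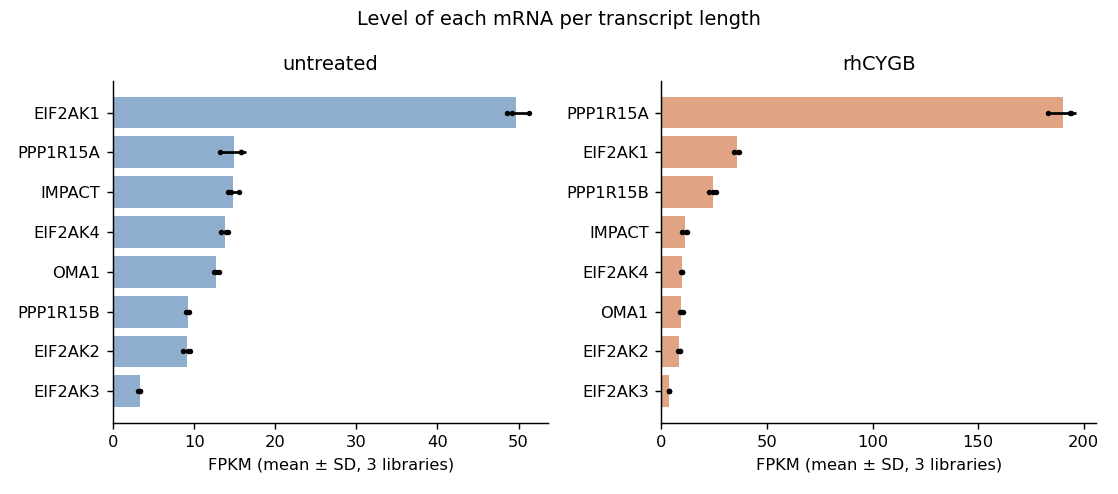
Bars give the mean FPKM of the 8 members in order of level in untreated (left) and rhCYGB (right) libraries, on 2 linear axes of different length, with error bars for the SD and a point for each library (n = 3). PPP1R15A goes from 14.9 to 190 FPKM and PPP1R15B from 9.21 to 24.3 FPKM, and EIF2AK3 is last in both groups.

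Summed over the 4 kinases, the level was 75.8 ± 2.06 FPKM in untreated and 57.5 ± 1.84 FPKM in rhCYGB libraries (n = 3 each, exact permutation p = 0.1). EIF2AK1 fell by 0.47 on log2(FPKM + 0.1), where the median of all genes was -0.15, against 0.31 with TMM. The part of that general shift in the fall of the kinase sum was not tested. The sum of PPP1R15A and PPP1R15B was 24.1 ± 1.39 and 214 ± 7.71 FPKM (exact permutation p = 0.1). Within each library the phosphatase sum over the kinase sum was 0.336, 0.330 and 0.288 in untreated and 3.72, 3.71 and 3.75 in rhCYGB libraries. Phosphatase subunit mRNA was therefore below kinase mRNA in all 3 untreated libraries and above it in all 3 rhCYGB libraries, an 11.7-fold higher ratio (exact permutation p = 0.1). Of the kinase sum, EIF2AK1 held 65.5% ± 0.228 in untreated and 62.3% ± 0.606 in rhCYGB libraries, and EIF2AK4 18.2% ± 0.424 and 16.8% ± 0.725. EIF2AK2 went from 11.98% ± 0.384 to 14.8% ± 0.545 and EIF2AK3 from 4.29% ± 0.190 to 6.10% ± 0.200 (SD, n = 3). None of these shares overlapped between the groups (exact permutation p = 0.1 for each of the 4, also after adjustment). EIF2AK1 mRNA was the main kinase mRNA in both groups. The shares are parts of the same sum, so a change in 1 of them moves the others. The EIF2AK2 share rose while its FPKM went from 9.08 to 8.50, and at gene level EIF2AK2 was not called.

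Transcript counts were deposited as well, and 3 members had more than 1 annotated transcript. Of 32577 transcripts tested 29.9% were called, 16.9% at 2-fold, and of 24967 tested for a changed share of their gene 2.40% were called. The transcripts were scaled on their own, which set the members with 1 transcript slightly lower than the gene table did, with PPP1R15A at 3.76 and PPP1R15B at 1.48 on the log2 scale. EIF2AK1 variant 1 fell by 0.42 (edgeR adjusted p = 0.00837), and variant 2 was not called (-0.24, adjusted p = 0.614). Variant 2 held 14.01%, 24.8% and 11.7% of the gene's counts in untreated and 19.5%, 17.4% and 19.0% in rhCYGB libraries, and without untreated replicate 2 its log2 difference was 0.15. EIF2AK2 was almost all variant 2, at 99.2% to 99.9% of its counts, and that transcript was not called (-0.02, adjusted p = 0.819). EIF2AK2 variant 1 had 6, 7 and 3 reads in untreated and 12, 19 and 25 reads in rhCYGB libraries, and its call at 1.90 (adjusted p = 0.0485) was lost when any 1 of the 6 libraries was left out, with log2 values of 1.63 to 2.17. EIF2AK3 had all its reads on variant 1, which was not called (0.19, edgeR adjusted p = 0.170), although the gene was (0.27, adjusted p = 0.00194). No share of a member transcript was called. Transcript counts varied so much between these libraries that a missing call does not show that levels or shares were alike.

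**Figure D4:**
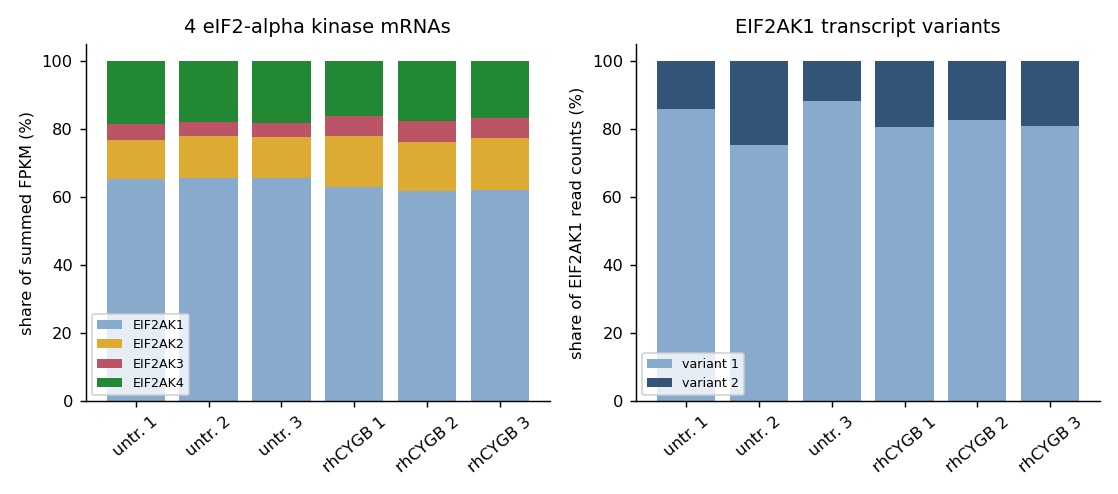
Bars give, for each of the 6 libraries, the share (%) of each kinase in the summed FPKM of the 4 kinases (left) and the share (%) of EIF2AK1 read counts on transcript variants 1 and 2 (right). EIF2AK1 holds the largest share of kinase mRNA in all 6 libraries, and untreated replicate 2 has the largest share of variant 2, 24.8%.

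The factor that these enzymes act on was measured by 8 genes of eIF2 and its exchange factor eIF2B. Of these, 4 rose, 3 fell and 1 had no call, with a median log2 fold change of 0.11. Among all 14728 genes tested, the background for this list and those that follow, 39.0% were called higher and 38.6% lower. At 2-fold 12.4% were called higher and 14.7% lower, and the median log2 fold change was -0.0046. The called counts of each list are to be read beside these shares. EIF2S2, the beta subunit, went from 221 to 530 CPM (log2 1.26) and was the only one of the list called at 2-fold. EIF2S1, which codes for eIF2-alpha itself, rose by 0.52 and the eIF2B subunit gene EIF2B2 by 0.62. The eIF2B genes EIF2B1, EIF2B5 and EIF2B3 fell by 0.85, 0.58 and 0.13, the last a call that was lost without untreated replicate 1, 2 or 3 or rhCYGB replicate 2 or 3 (-0.11 to -0.13) and in the DESeq2 test (-0.14), and that was larger and kept with upper quartile factors (-0.27) and library totals (-0.29). EIF2S3, the gamma subunit, was not called (log2 0.01, edgeR adjusted p = 0.835), but was lower by the test with upper quartile factors (-0.13) and library totals (-0.16). EIF2B4, named after its value was seen, rose by 0.20, or 0.063 and 0.039 with no call under those scalings.

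Of 8 genes whose products activate or restrain the kinases, 5 rose and 3 fell, with a median of 0.33. HSPA5 (BiP), the ER chaperone that holds EIF2AK3 inactive, rose by 2.15 on the log2 scale, from 687 to 3052 CPM. NCK1, an adaptor reported to bind EIF2AK3, rose by 0.98, and PRKRA (PACT), an activator of EIF2AK2, by 0.87. GCN1, the ribosome-bound activator of EIF2AK4, went from 196 to 103 CPM and fell by 0.93, in the same direction as EIF2AK4 and IMPACT. TARBP2, an inhibitor of EIF2AK2, fell by 0.31 (-0.22 with no call without rhCYGB replicate 3), and ADAR, which edits double-stranded RNA, by 0.22. The remaining 2 genes, named after their values were seen, were DNAJC3, an inhibitor of EIF2AK3 and EIF2AK2, which rose by 0.39, and DELE1, the substrate of OMA1 that activates EIF2AK1, which rose by 0.28 (0.12 with no call under library totals). With TMM 1 gene of the list was called at 2-fold, or 2 when rhCYGB replicate 2 was left out. GCN1 was also called at 2-fold with upper quartile factors (-1.07) and library totals (-1.09).

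Among 7 genes of the inner mitochondrial membrane around OMA1, 2 rose and 5 fell, with a median of -0.24. Of all genes tested 39.0% were called higher and 38.6% lower. SPG7, a subunit of a matrix-facing protease, went from 102 to 43.9 CPM (log2 -1.22), and OPA1, the fusion GTPase that OMA1 cleaves, from 186 to 96.5 CPM (log2 -0.94). AFG3L2, the partner of SPG7, fell by 0.37. YME1L1, the protease that shares OPA1 as a substrate, rose by 0.42, and STOML2, a membrane scaffold, by 0.20. The scaffold genes PHB1 and PHB2, named after their values were seen, fell by 0.24 and 0.21. STOML2 lost its call under upper quartile (0.057) and total count scaling (0.033), which left YME1L1 as the only gene of the 7 that rose.

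PPP1R15A and PPP1R15B work in a complex with a catalytic subunit of protein phosphatase 1 and with actin, and of 5 such genes 3 rose and 2 fell, with a median of 0.15. PPP1CA went from 182 to 94.3 CPM (log2 -0.95), PPP1CB from 185 to 234 CPM (0.34) and PPP1CC from 239 to 266 CPM (0.15, but 0.011 with upper quartile factors and -0.013 with library totals, both with no call). ACTB went from 5832 to 3131 CPM (-0.90) and ACTG1 from 3433 to 7622 CPM (1.15). The actin genes have near-identical copies, between which the counting could split reads.

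Of 8 mRNAs known for upstream open reading frames that respond to phosphorylated eIF2-alpha, 6 rose and 2 fell, with a median of 1.17. Rises of at least 2-fold were called for 5 of them, and for 12.4% of all genes tested. With upper quartile factors or library totals 4 rose at least 2-fold, since EPRS1 stood at 0.88 and 0.86. DDIT3 went from 14.7 to 248 CPM (log2 4.09), IFRD1, a transcription co-regulator, from 40.1 to 189 CPM (2.24), and ATF4 from 209 to 809 CPM (1.95). SLC35A4 fell by 0.85 and BACE1, the beta-secretase, by 0.67. ATF5, EPRS1 and IBTK, named after their values were seen, rose by 1.32, 1.02 and 0.38. The table measures the amount of these mRNAs and not their translation.

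The other ER stress sensors were compared with EIF2AK3, and of 4 genes 3 rose and 1 fell, with a median of 1.74. ERN1 (IRE1-alpha) went from 9.20 to 74.5 CPM (log2 3.02), and XBP1, whose mRNA it splices, from 72.7 to 527 CPM (2.86). ATF6, a membrane-bound transcription factor, rose by 0.63, and its relative ATF6B fell by 0.33. The value of EIF2AK3, 0.27, lay between those of ATF6B and ATF6.

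The other double-stranded RNA sensors were compared with EIF2AK2: of 9 genes ZBP1 had no count, and among the 8 tested 2 rose, 4 fell and 2 had no call, with a median of -0.49. OAS3 and OAS1, enzymes that double-stranded RNA activates, fell by 1.74 and 1.33, and OAS2, a relative named after its value was seen, by 0.77. IFIH1 (MDA5) and RIGI, the cytosolic RNA helicases, rose by 0.39 and 0.22, and RIGI lost its call under upper quartile (0.080) and total count scaling (0.057). DHX58 (log2 -0.06, edgeR adjusted p = 0.609) and TLR3 (-0.21, adjusted p = 0.517) were not called, although limma on log2(FPKM + 1) called DHX58 lower (-0.17, adjusted p = 0.0496).

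**Figure D5:**
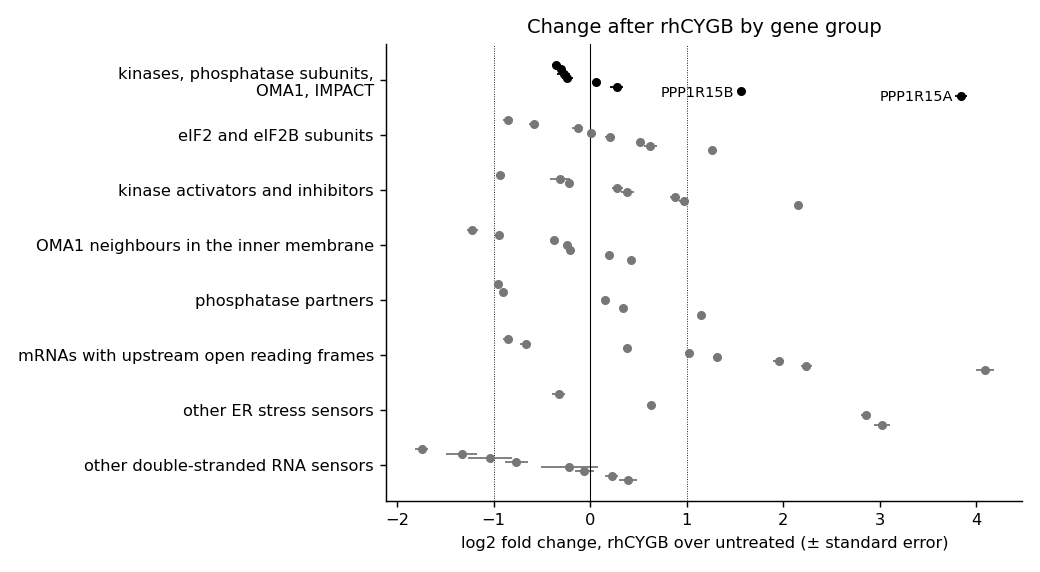
The log2 fold change of rhCYGB over untreated libraries (x axis, with bars for the standard error, n = 3 per group) is drawn for each gene tested of the 8 members (black) and the 7 pathway lists (grey), with dotted lines at 2-fold. PPP1R15A at 3.84 and PPP1R15B at 1.56 lie beyond the 2-fold line, and the other 6 members lie between -0.35 and 0.27.

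The genes most like the members with the largest rise and fall were sought among 11539 genes with a mean count of 100 or more, by the root mean square difference in log2 CPM from the untreated mean over the 6 libraries. Nearest to PPP1R15A were NDRG4 (difference 0.042, log2 fold change 3.83), VEGFA, a vascular growth factor (0.065 and 3.76), and GPR1, a G protein-coupled receptor (0.088 and 3.95). Among the genes nearest to EIF2AK4 were U2AF2, a splicing factor (0.019 and -0.35), and NPHP4, a ciliary protein gene (0.025 and -0.34). VEGFA had CPM levels of 58.1 ± 4.85 and 787 ± 18.7 (SD, n = 3), above those of PPP1R15A in both groups, so the likeness is in the pattern and not in the level.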

How the data were processed

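Poly(A) RNA libraries (TruSeq stranded) of MIA PaCa-2 cells, 3 untreated and 3 rhCYGB, were sequenced on an Illumina instrument. Per the labels and the study's methods, the authors checked reads with FastQC 0.11.7, trimmed them, aligned them with HISAT2 2.1.0 and assembled and counted transcripts with StringTie 2.1.3b. The authors deposited whole-number read counts and FPKM values per gene (35993) and per transcript (81203), and TPM columns (12) that were not used here. The submitters' notes name a mouse build, mm10, although the genes are human. The last transcript on chromosome 1 ends at 249231298, beyond the last gene of GRCh38.p14 (248937099), so table positions are printed without a build and promoters separately from RefSeq.

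Counts were fitted with edgeR 4.0.16 in R 4.3.3 (filterByExpr, TMM factors, quasi-likelihood test of rhCYGB against untreated), with Benjamini-Hochberg adjustment over all 14728 genes or 32577 transcripts and a threshold of 0.05, and a 2-fold call where stated. The untreated libraries held 35258179, 42271299 and 38522502 counts and the rhCYGB libraries 39878450, 34838399 and 38974397. The fitted spread between libraries of a group was 5.48% as a coefficient of variation, and replicates of a group differed by more than counting noise, so none was counted as a duplicate. Transcript shares were tested with edgeR's splicing test. FPKM ratios and shares were compared by exact two-sided permutation tests over libraries. The scripts were tested on simulated counts with changes planted in 200 of 14728 genes, all larger than 2-fold. At the spread of these libraries the gene test found these changes, and the transcript and share tests missed most of theirs. Smaller changes, such as those of EIF2AK1, EIF2AK3, EIF2AK4, OMA1 and IMPACT, were not simulated. Scaling with as many genes changed as were called here was not tested either. Alternatives were other scaling factors, DESeq2 1.42.0, limma 3.58.1 on log2(FPKM + 1) and log2(FPKM + 0.1), other count filters, a replicate block and each library left out.

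The 8 members, the pathway lists and the tests were chosen with earlier results of these data known, and the motifs with the promoter sequences in view. Named were all members, every gene of a list of up to 5, and of longer lists the 3 largest rises and falls among called genes and any with no call. The 3 nearest profiles were named for the members with the largest rise and fall. Among the genes these rules chose, 2 are not reported here.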

Additional observations from a re-analysis of the deposited data

How the results depend on the processing

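Over 15 alternatives PPP1R15A (log2 3.59 to 3.88), PPP1R15B (1.31 to 1.59), EIF2AK1 (-0.47 to -0.29), EIF2AK4 (-0.51 to -0.32), OMA1 (-0.44 to -0.23) and IMPACT (-0.40 to -0.18) kept their direction and their call, EIF2AK3 kept its direction and was called in 11, and EIF2AK2 was called in 0. Most other changes came with 4 alternatives: upper quartile factors, library totals and limma on log2(FPKM + 1) and log2(FPKM + 0.1) moved the median of all genes to -0.15, -0.17, -0.09 and -0.15. In that order EIF2AK2 turned to -0.078, -0.10, -0.086 and -0.095, and EIF2AK3 lost its call at 0.13, 0.11, 0.084 and 0.11. Under each of the 4, the 2-fold falls were 1 among the kinase regulators (0 with TMM), 2 around OMA1 (1 with TMM) and 2 among the phosphatase partners (0 with TMM), and 1 gene around OMA1 rose (2 with TMM). Library totals and both FPKM fits left 0 phosphatase partners with a 2-fold rise, library totals and log2(FPKM + 0.1) gave 1 2-fold fall each for eIF2 and eIF2B and for the mRNAs with upstream frames, and both FPKM fits left 3 kinase regulators higher. Of the double-stranded RNA sensors 1 rose with upper quartile factors or totals and 0 in both FPKM fits. Calls of at least 2-fold among all genes were 805 higher and 1172 lower with log2(FPKM + 1), and 1282 and 2327 with log2(FPKM + 0.1).

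With 1 library left out, the kinase regulators had 1 to 2 rises of 2-fold, the log2 difference of the EIF2AK1 to OMA1 ratio was -0.058 to 0.027 (the latter without rhCYGB replicate 1), EIF2AK2 variant 1 was 1.63 to 2.17 and never called, EIF2AK2 variant 2 was -0.067 to 0.025 (0.0041 without untreated replicate 3, 0.025 without rhCYGB replicate 2), and EIF2AK1 variant 2 was -0.43 to 0.15. The log2 difference of a transcript from its gene was -0.10 to 0.015 for EIF2AK1 variant 1 and -0.062 to 0.54 for variant 2. Replicate numbers did not pair the libraries: same-numbered deviations correlated at -0.048, 0.0072 and 0.0055, and 2 of 6 libraries correlated best with their own number. With the replicate block PPP1R15A was 3.84 and PPP1R15B 1.56, no gene-level call of a member changed, and EIF2AK2 variant 1 lost its call at 1.90 (edgeR adjusted p = 0.178), as it did without a count filter at 1.90 (adjusted p = 0.146). Among the pathway genes EIF2S3, not called with TMM, turned to -0.0028 with DESeq2 factors, -0.0027 in the DESeq2 test, -0.13 and -0.16 with upper quartile factors and totals, -0.16 in both FPKM fits, -0.010 at 10 or more counts and, with 1 library left out, -0.0014 to 0.024. PPP1CC turned to -0.013 with totals and -0.018 in both FPKM fits, and with 1 library left out DHX58 was -0.11 to 0.012 and TLR3 -0.35 to 0.0096. The FPKM fits change unit, offset and test along with the scaling, and the cause of these changes was not tested. Ratios and shares could not pass 0.05 with 3 libraries against 3.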
